A study of Arabidopsis thaliana with 6 samples.

Results

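Aquaporins are membrane channels that let water, and in some members other small neutral molecules, pass through the lipid bilayer. In plants the PIP proteins lie in the plasma membrane and the TIP proteins mainly in the tonoplast, the membrane around the vacuole, so that both together set how fast water enters a cell and fills its vacuole as the cell expands. The NIP proteins carry mainly boric acid, metalloids and other small solutes, and the SIP proteins lie in the endoplasmic reticulum. The family was taken as the 35 loci of these subfamilies in Arabidopsis thaliana, namely 5 PIP1, 8 PIP2, 10 TIP, 9 NIP and 3 SIP genes, chosen by locus and not by any measured value. They are represented by 80 of the 43603 probes on the array.

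The study added lasalocid sodium (LS), a carboxylic acid ionophore that carries cations across membranes, to seedlings in order to see which genes respond to it. Wild-type seedlings of the ecotype Col-0 were grown in the dark on sugar-containing agar, and at 3 days of age they were moved to liquid medium with 1 µM LS or with none and kept in the dark for 24 h. RNA of whole seedlings, 4 days old at harvest, was hybridised to 6 single-colour Agilent arrays, 3 of LS-treated and 3 of control seedlings. No label says that the replicates were separate cultures, so the p-values measure the spread between these samples, which may be technical. Whole seedlings were ground, so fewer cells of one type and less RNA per cell cannot be told apart.

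Levels are given as log2 of the processed signal relative to the 75th percentile of the array, so that 0 is that percentile. A gene stands for its brightest tested probe, and a probe was tested if it was well above background on all arrays of at least 1 group. A gene was called higher or lower in LS where limma gave a Benjamini-Hochberg adjusted p under 0.05 over all 32348 tested probes and the fold change was at least 1.5. Genes are named as in the RefSeq table, by the older names where these exist, with the locus beside the name.

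Across the arrays, 72.6% to 77.0% of probes were well above background and none was saturated. The 75th percentile of signal was 1309, 1500 and 2123 in LS arrays 1 to 3 and 1447, 1404 and 1067 in control arrays 1 to 3. LS array 3 stood apart from the other LS arrays: the median absolute difference over probes was 0.36 and 0.37 between it and LS arrays 1 and 2, against 0.24 between those 2, while control arrays differed by 0.16 to 0.23. It was the lowest LS array for 18 of the 32 tested aquaporin genes. Among those with a mean log2 level over 3 it was the lowest for 10 of 15, beside 67.4% of all probes over that level. Control array 3 was the lowest control array for 17 of the 32 genes. Of the 15 brighter genes it was the lowest for 8, beside 26.2% of all probes over that level. LS array 1 shared a slide with the 3 control arrays, and LS arrays 2 and 3 were on another slide.

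Of the 35 genes, 32 had a tested probe, and 4 were called. TIP4;1 and SIP2 were higher in LS, 2 of 32 genes against 3.18% of all 21820 genes. DELTA-TIP and TIP5;1 were lower, 2 of 32 against 2.19% of all genes. TIP5;1 passed the filter through the control arrays alone, and 1 gene was lower where all 6 arrays had to be above background. By probe, 6 of the 76 tested aquaporin probes were called higher, against 2.6% of all probes, and 7 were called lower, against 2.45%. Probes of 1 gene are not independent: 5 of the 7 lower belong to DELTA-TIP and 3 of the 6 higher to DELTA-TIP2. The methods' t-test at an unadjusted p under 0.05 and the same fold called 4 genes higher, against 5.57% of all genes, and 2 lower, against 4.51%. At an unadjusted limma p under 0.05 with no fold threshold, 7 genes were higher, against 12.9% of all genes, and 5 were lower, against 13.1%. In 7 genes all LS arrays lay above all control arrays, as in 17.6% of all genes, and in 8 genes all lay below, as in 17.8%. The family was split in direction, since 16 genes had a log2 fold change above 0 and 16 below, and their median was -0.05, beside -0.03 over all genes. The TIP2 genes, whose products share a membrane, are described first.

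**Figure D1:**
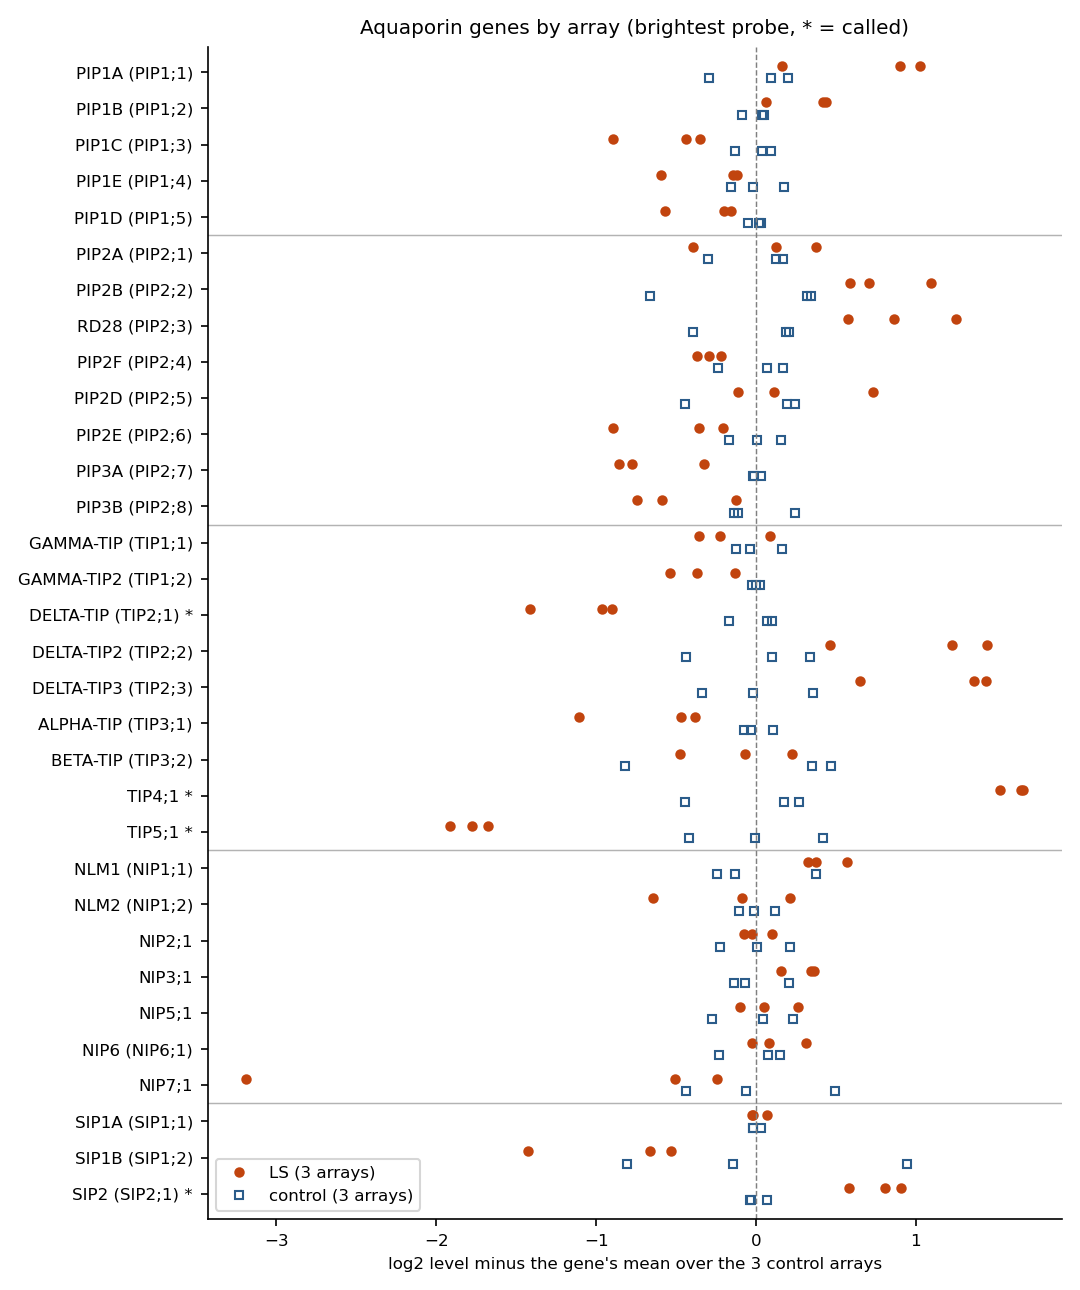
Level of each of the 32 tested aquaporin genes on each array (x axis, log2 units, as the difference from the gene's mean over the 3 control arrays), with LS arrays as filled circles and control arrays as open squares, ordered by subfamily (y axis). The LS circles of DELTA-TIP lie left of all control squares, those of SIP2 right of them, and the 7 NIP genes overlap between groups.

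DELTA-TIP (TIP2;1, AT3G16240) encodes a tonoplast channel of vegetative tissue that passes water and ammonia. Its brightest probe was at 6.55, 6.48 and 6.03 in LS arrays 1 to 3, and at 7.27, 7.54 and 7.51 in control arrays 1 to 3. Every LS array lay below every control array, with LS array 3 the lowest. The log2 fold change was -1.09 (SE 0.19, adjusted p = 0.031), a 2.13-fold lower level in LS. The locus has 5 probes, and all 5 were called lower, with log2 fold changes between -1.34 and -1.09. The dimmest of them was at 0.45, 0.19 and 0.29 in LS arrays and at 1.55, 1.72 and 1.52 in control arrays, again with no overlap.

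DELTA-TIP2 (TIP2;2, AT4G17340) encodes a close relative in the same membrane, found mainly in roots. Its brightest probe read 5.48, 5.26 and 4.50 in LS arrays, against 4.37, 4.14 and 3.60 in control arrays. All LS arrays were above all control arrays, with LS array 3 the lowest of the LS arrays, and the difference of 1.04 (SE 0.31) was not called (adjusted p = 0.091). The other 3 probes of the locus were called higher, with log2 fold changes of 1.44, 1.93 and 2.01. The probe with the largest of these read 2.50, 1.54 and 1.93 in LS arrays, against 0.27, 0.20 and -0.52 in control arrays, and its groups did not overlap. The probe with 1.93 lacked a value in LS array 1, where the spot carried an outlier mark, and its fit rests on 5 arrays.

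DELTA-TIP3 (AT5G47450), the remaining TIP2 gene, encodes a tonoplast channel that also passes ammonia. Its brightest probe was at 4.37, 4.44 and 3.65 in LS arrays and at 3.36, 2.98 and 2.66 in control arrays. The groups did not overlap, and the log2 fold change of 1.15 (SE 0.27) missed the threshold (adjusted p = 0.056). Its other probe read 2.69, 2.50 and 2.37 in LS arrays, against 1.65, 1.3 and 0.55 in control arrays. That probe was called higher, with a log2 fold change of 1.35 (SE 0.28, adjusted p = 0.042). The 3 TIP2 genes thus split, with 5 of 5 probes of DELTA-TIP called lower and 4 of 6 probes of the other 2 genes called higher.

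The split can be read within each array, where the scaling cancels. The brightest probe of DELTA-TIP2 minus that of DELTA-TIP was -1.07, -1.22 and -1.53 in LS arrays 1 to 3, and -2.90, -3.40 and -3.92 in control arrays 1 to 3. For DELTA-TIP3 minus DELTA-TIP the values were -2.18, -2.04 and -2.37 in LS arrays and -3.91, -4.56 and -4.85 in control arrays. The means of these differences were higher in LS by 2.14 and 2.25, and neither overlapped between groups. These pairs were chosen after their values were seen and carry no test.

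**Figure D2:**
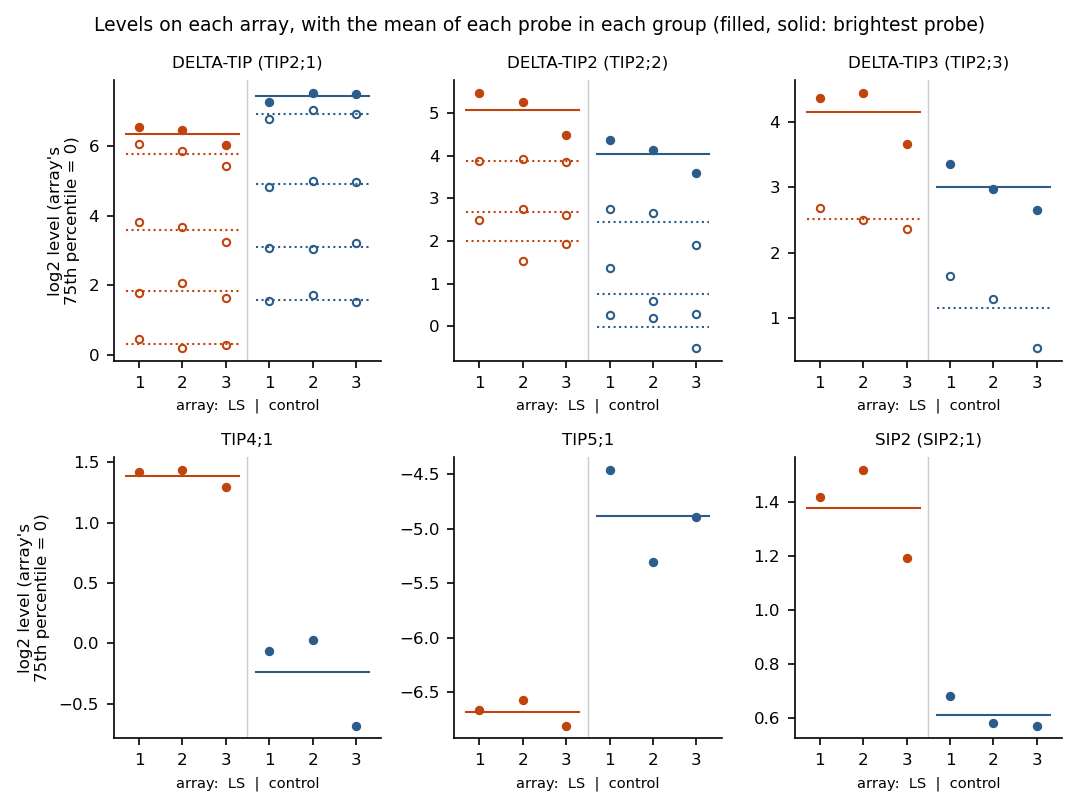
Log2 level on each array (y axis, 0 is the array's 75th percentile) of every probe of 6 aquaporin genes, named above each panel, with LS arrays on the left and control arrays on the right of each panel. Horizontal lines are the means of a probe over the 3 arrays of a group, and filled points mark the brightest probe of the gene. All 5 probes of DELTA-TIP lie lower in LS, and all 6 probes of DELTA-TIP2 and DELTA-TIP3 higher.

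TIP4;1 (AT2G25810) encodes a tonoplast channel of roots that passes water and urea. It was at 1.42, 1.44 and 1.29 in LS arrays, and at -0.06, 0.03 and -0.68 in control arrays. The 3 LS arrays lay close together and above the highest control array. The log2 fold change was 1.62 (SE 0.22, adjusted p = 0.021), a 3.07-fold higher level in LS, and 1.14% of all tested genes had a change at least as large upward.

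TIP5;1 (AT3G47440), whose transcript is known mainly from pollen, was near the lower end of what the arrays could measure. Its single probe read -6.66, -6.57 and -6.80 in LS arrays and -4.47, -5.31 and -4.89 in control arrays. It was well above background on 2 of 3 LS arrays and on 3 of 3 control arrays, and the groups did not overlap. The log2 fold change was -1.79 (SE 0.23, adjusted p = 0.020). With normexp background correction in place of the processed signal the log2 fold change was -0.67 (adjusted p = 0.052), and the call ended. Of 4 pollen markers, VGD1 and VGDH1 were not well above background on all arrays of either group. ACA9, a calcium pump of pollen, was called higher in LS by 1.21 (adjusted p = 0.028), at -3.72, -3.49 and -3.60 in LS arrays against -4.48, -4.83 and -5.14 in control arrays. MGH3, a histone of the male germ line, was well above background on 1 of 3 LS arrays and 3 of 3 control arrays. Its log2 fold change of -0.69 lies near the floor of the arrays and was not called (adjusted p = 0.098). The summed level of the 2 tested pollen genes, most of it from ACA9, was 0.0838 to 0.0957 times the 75th percentile in LS arrays. In control arrays it was 0.0385 to 0.056 times, and the part of pollen genes in the change was not tested.

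The other TIP genes were not called. GAMMA-TIP (AT2G36830) and GAMMA-TIP2 (AT3G26520) encode the main tonoplast water channels of vegetative cells. GAMMA-TIP2 read 7.0, 6.76 and 6.59 in LS arrays and 7.11, 7.15 and 7.13 in control arrays. Its groups were apart, with control arrays almost equal, and the log2 fold change was -0.35 (SE 0.16, adjusted p = 0.236). GAMMA-TIP had a log2 fold change of -0.16 (SE 0.18, adjusted p = 0.603), and 3 of its 4 probes were above 0. GAMMA-TIP3 (AT4G01470), known from pollen, was not well above background on any array.

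ALPHA-TIP (AT1G73190) and BETA-TIP (AT1G17810) belong to the protein storage vacuoles of maturing seeds. ALPHA-TIP read 2.80, 2.71 and 2.07 in LS arrays against 3.11, 3.14 and 3.28 in control arrays. All LS arrays were below all control arrays, and the log2 fold change of -0.65 (SE 0.22) was not called (adjusted p = 0.122). BETA-TIP overlapped between the groups, at 3.24, 2.94 and 2.54 in LS arrays and 3.48, 2.19 and 3.36 in control arrays, with control array 2 the lowest of all 6. Of 11 other seed maturation genes, none was called in either direction by limma, beside 3.18% and 2.19% of all genes. None reached an unadjusted limma p under 0.05, beside 12.9% and 13.1%, and the methods' t-test called none, beside 5.57% and 4.51%. Their log2 fold changes lay between -0.69 for SESA1, an albumin, and 0.22 for CRA1, a cruciferin, and their summed level was 242 to 384 times the 75th percentile in LS arrays against 263 to 398 times in control arrays.

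SIP2 (SIP2;1, AT3G56950) encodes an aquaporin of the endoplasmic reticulum. It was at 1.42, 1.52 and 1.19 in LS arrays and at 0.68, 0.58 and 0.57 in control arrays. The lowest LS array was above the highest control array, and the log2 fold change was 0.77 (SE 0.16, adjusted p = 0.041), a 1.70-fold higher level. The other SIP genes were not called. SIP1A (AT3G04090) read 2.04, 2.13 and 2.04 in LS arrays and 2.05, 2.05 and 2.09 in control arrays, a log2 fold change of 0.01 with a 95% confidence interval of -0.32 to 0.34. SIP1B (AT5G18290) read -0.88, -1.02 and -1.78 in LS arrays and -1.16, -0.50 and 0.60 in control arrays. Its groups overlapped and its controls were widely spread, and its log2 fold change of -0.87 (SE 0.45) was not called (adjusted p = 0.268). It was -0.40 without control array 3 and -1.28 without control array 1.

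The products of the 5 PIP1 genes reach the plasma membrane mostly in complexes with PIP2 proteins. None of these genes was called in either direction, beside 3.18% and 2.19% of all genes. At an unadjusted limma p under 0.05, 1 was higher and 1 lower, beside 12.9% and 13.1% of all genes. The methods' t-test called none, beside 5.57% and 4.51%. PIP1C (AT1G01620) was at 6.22, 6.14 and 5.68 in LS arrays and at 6.44, 6.61 and 6.67 in control arrays. All LS arrays were below all control arrays, and the log2 fold change of its brightest probe was -0.56 (SE 0.19, adjusted p = 0.127). All 4 of its probes were below 0, between -1.01 and -0.56, and 1 was called lower, at 4.04, 3.70 and 3.78 in LS arrays against 4.64, 4.60 and 4.78 in control arrays (log2 fold change -0.83, SE 0.16, adjusted p = 0.037).

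PIP1A (AT3G61430) differed in sign from PIP1C. Its 3 tested probes had log2 fold changes of 0.70 to 0.92 with no call, and the remaining probe was well above background on no array. The brightest read 5.71, 5.59 and 4.84 in LS arrays against 4.88, 4.77 and 4.39 in control arrays, where LS array 3 fell within the range of the controls. PIP1B (AT2G45960), which also passes CO2, had a log2 fold change of 0.31 (SE 0.17, adjusted p = 0.293), and all 6 of its probes were above 0. PIP1E (AT4G00430) and PIP1D (AT4G23400) had log2 fold changes of -0.28 and -0.31 without a call.

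None of the 8 PIP2 genes, the plasma membrane channels with the higher water permeability, was called by limma, beside 3.18% and 2.19% of all genes. At an unadjusted limma p under 0.05, 2 were higher and 1 was lower, beside the same 12.9% and 13.1% of all genes. The methods' t-test called RD28 higher and none lower, beside 5.57% and 4.51%. PIP2A (AT3G53420), a main water channel of root and leaf, read 6.50, 6.25 and 5.73 in LS arrays and 6.25, 6.29 and 5.82 in control arrays. The groups overlapped, and the log2 fold change was 0.04 with a 95% confidence interval of -0.53 to 0.60.

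PIP2B (AT2G37170) and RD28 (AT2G37180), first found as a transcript of desiccated plants, are neighbours with no protein-coding gene between them and are near-identical, so their probes may share signal. PIP2B was at 5.29, 4.78 and 4.90 in LS arrays and at 4.54, 4.51 and 3.53 in control arrays. RD28 was at 0.64, 0.36 and 1.03 in LS arrays and at -0.01, -0.03 and -0.62 in control arrays. In both genes all LS arrays lay above all control arrays and control array 3 was the lowest. The log2 fold changes were 0.80 (SE 0.30, adjusted p = 0.153) for PIP2B and 0.90 (SE 0.25, adjusted p = 0.077) for RD28.

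PIP3A (AT4G35100) was on the other side. It read 6.06, 5.52 and 5.60 in LS arrays and 6.36, 6.41 and 6.36 in control arrays, with no overlap. Its log2 fold change was -0.65 (SE 0.18, adjusted p = 0.084), and its 5 probes lay between -0.89 and -0.33. PIP2E (AT2G39010) had 5 probes between -0.65 and -0.44, none of them called, and PIP3B (AT2G16850) had a log2 fold change of -0.48 (adjusted p = 0.208). PIP2F (AT5G60660), known from roots, had a log2 fold change of -0.29 (adjusted p = 0.315). PIP2D (AT3G54820), far below the 75th percentile on every array, had a log2 fold change of 0.24 (adjusted p = 0.624).

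**Figure D3:**
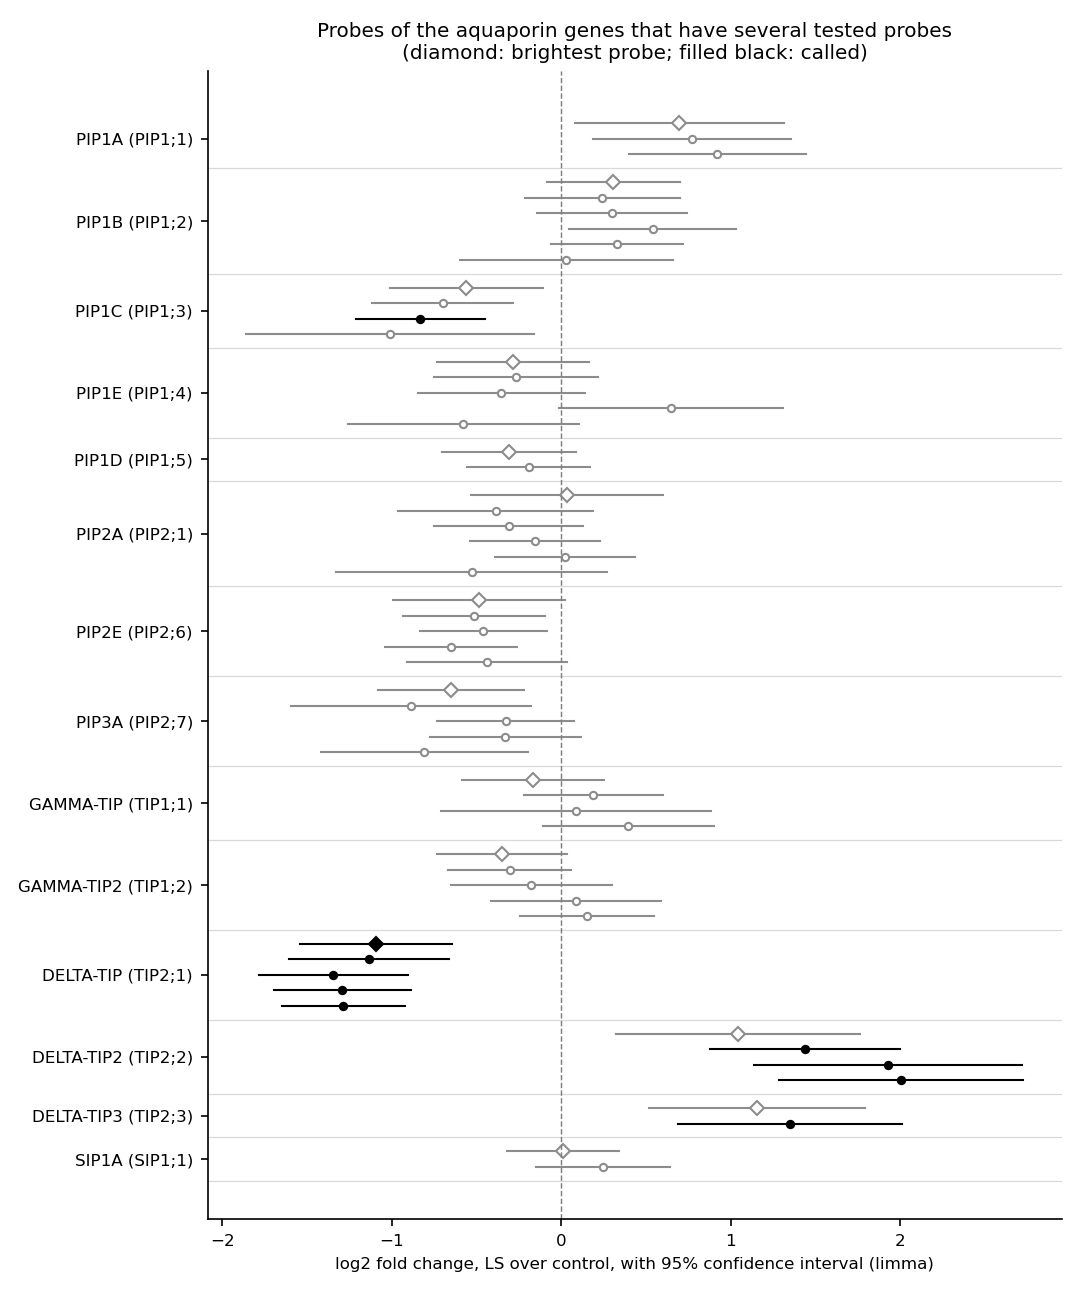
Log2 fold change of LS over control (x axis) with its 95% confidence interval from limma for each probe of the 14 aquaporin genes that have several tested probes (y axis). Diamonds mark the brightest probe and black fill marks called probes. In 5 genes all probes lie above 0, in 5 all lie below, and in 4 the probes differ in sign.

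Of the 7 tested NIP genes, none was called in either direction, beside 3.18% and 2.19% of all genes. None reached an unadjusted limma p under 0.05, beside 12.9% and 13.1%, and the methods' t-test called none, beside 5.57% and 4.51%. In none of them were the groups apart, beside 17.6% of all genes with all LS arrays above and 17.8% with all below. NIP2;1 (AT2G34390), known as a gene induced by low oxygen in roots, was at 3.72, 3.67 and 3.84 in LS arrays and at 3.96, 3.75 and 3.52 in control arrays. The groups overlapped, and the 95% confidence interval of the log2 fold change was -0.40 to 0.40. NLM1 (AT4G19030), which also lets arsenite in, had a log2 fold change of 0.42 (adjusted p = 0.242). The values were -0.17 for NLM2 (AT4G18910) and 0.29 for NIP3;1 (AT1G31885). The NIP4 genes AT5G37810 and NLM5 (AT5G37820), neighbours known from pollen, were not well above background on all arrays of either group and were not tested.

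The boric acid channels are of interest because boron links the pectin of the cell wall, and the study treated plants with boric acid. In plants grown in a cycle of day and night, LS did not alter what boric acid did to root length. In tobacco suspension cells, boron spectra from solid-state NMR were alike with and without LS. From these the paper proposes that this linking by boron was not affected. Neither assay used the dark-grown seedlings of these arrays. NIP5;1 (AT4G10380), the channel of boron uptake in roots, read -0.85, -0.48 and -0.69 in LS arrays and -0.51, -0.70 and -1.02 in control arrays. The groups overlapped, with a log2 fold change of 0.07 and a 95% confidence interval of -0.38 to 0.52. NIP6 (AT1G80760), which moves boron to young shoot tissue, had a log2 fold change of 0.13 (95% confidence interval -0.29 to 0.54). NIP7;1 (AT3G06100), known from anthers, was well above background on 2 of 3 LS arrays and 3 of 3 control arrays, and LS array 3, at -8.89, lay far below the other LS arrays at -5.95 and -6.21. Its log2 fold change was -1.31 (SE 0.73, adjusted p = 0.301).

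The boron exporters carry boron out of the cell and work beside these channels. Of 7 listed, 5 were tested, and 1 was called higher and 1 lower, beside 3.18% and 2.19% of all genes. At an unadjusted limma p under 0.05, 3 were higher and 1 was lower, beside 12.9% and 13.1%. The methods' t-test called 1 higher and 1 lower, beside 5.57% and 4.51%. BOR2 (AT3G62270) was at 2.31, 2.22 and 1.66 in LS arrays and at 1.05, 0.81 and 0.72 in control arrays, with no overlap and a log2 fold change of 1.20 (SE 0.22, adjusted p = 0.032). BOR5 (AT1G74810) stood well above background on 3 of 3 control arrays and on none of the LS arrays, which gives only a bound. It was at least 1.45-fold lower in LS, where an LS array counted at no less than the dimmest probe it measured above background. This bound was not tested. The limma call (adjusted p = 0.026) used the LS values as read, all of them below that floor. BOR5 passed the filter through the control arrays alone. BOR1, which loads boron into the xylem and is named after its values were seen, had a log2 fold change of 1.19 (SE 0.28, adjusted p = 0.056), and its groups did not overlap. The other tested exporters, also named after their values were seen, were not called. BOR3 had a log2 fold change of -0.04 (adjusted p = 0.928). BOR4, well above background on 2 of 3 control arrays, had 1.14 (adjusted p = 0.151), with its groups apart.

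Proteins that carry PIP channels to the membrane, phosphorylate them or mark them for removal were listed as 11 genes. All 11 were tested and none was called in either direction by limma, beside 3.18% and 2.19% of all genes. None reached an unadjusted limma p under 0.05, beside 12.9% and 13.1%, and the methods' t-test called none, beside 5.57% and 4.51%. The median log2 fold change was -0.19, beside -0.03 over all genes. Of the 11, 1 was above 0, beside 10248 of all 21820 genes. The lowest was RMA3 (AT4G27470), a RING ubiquitin ligase of the endoplasmic reticulum, at -0.40, -0.24 and -1.29 in LS arrays and 0.06, -0.15 and -0.05 in control arrays (log2 fold change -0.59, SE 0.28, adjusted p = 0.235). The highest was the receptor kinase SIRK1 (AT5G10020), with a log2 fold change of 0.07 (SE 0.15).

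TIP4;1, which was called, and DELTA-TIP2, which was called at 3 of its 4 probes, are known mainly from roots. Other members tied to roots above did not rise. PIP2F, NIP2;1 and NIP5;1 had log2 fold changes of -0.29, 0.0008 and 0.07, with no call. Root markers were read on the same arrays. Of 9 root markers, 1 was called higher and none lower, beside 3.18% and 2.19% of all genes. At an unadjusted limma p under 0.05, 4 were higher and 1 was lower, beside 12.9% and 13.1%. The methods' t-test called 2 higher and none lower, beside 5.57% and 4.51%. In 4 all LS arrays lay above all control arrays, and in 2 all lay below, beside 17.6% and 17.8%. The gene called by limma was CASP4, a membrane protein of the Casparian strip, with a log2 fold change of 0.87 (adjusted p = 0.046). The highest log2 fold change, 1.73 in the root hair gene EXPA7, was not called (adjusted p = 0.065), with control array 3 at -3.31 far below the other control arrays. Also apart and above, and named after their values were seen, were the root hair gene COBL9 and SCR, a regulator of the endodermis. Their log2 fold changes were 1.64 (adjusted p = 0.089) and 0.73 (adjusted p = 0.067). Control array 3 of COBL9, at -2.57, was again far below the other control arrays, at -0.62 and -0.79. The lowest was -0.68 in CASP5 (adjusted p = 0.127). The summed level of the 9 genes was 29.1 to 39.4 times the 75th percentile in LS arrays and 35.1 to 39.7 times in control arrays. The 3 xylem vessel markers had log2 fold changes between -0.02 and 0.17. For 3 genes of green cotyledons the sums were 246, 206 and 133 in LS arrays 1 to 3 and 301 to 324 in control arrays. None was called, while 2 were lower at an unadjusted limma p under 0.05, beside 13.1% of all genes. The methods' t-test called none. RBCS1A was at 7.03, 7.0 and 5.71 in LS arrays, where array 3 was by far the lowest, and at 7.52, 7.39 and 7.42 in control arrays (log2 fold change -0.86, adjusted p = 0.174). The part of these tissues in the aquaporin changes was not tested.

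**Figure D4:**
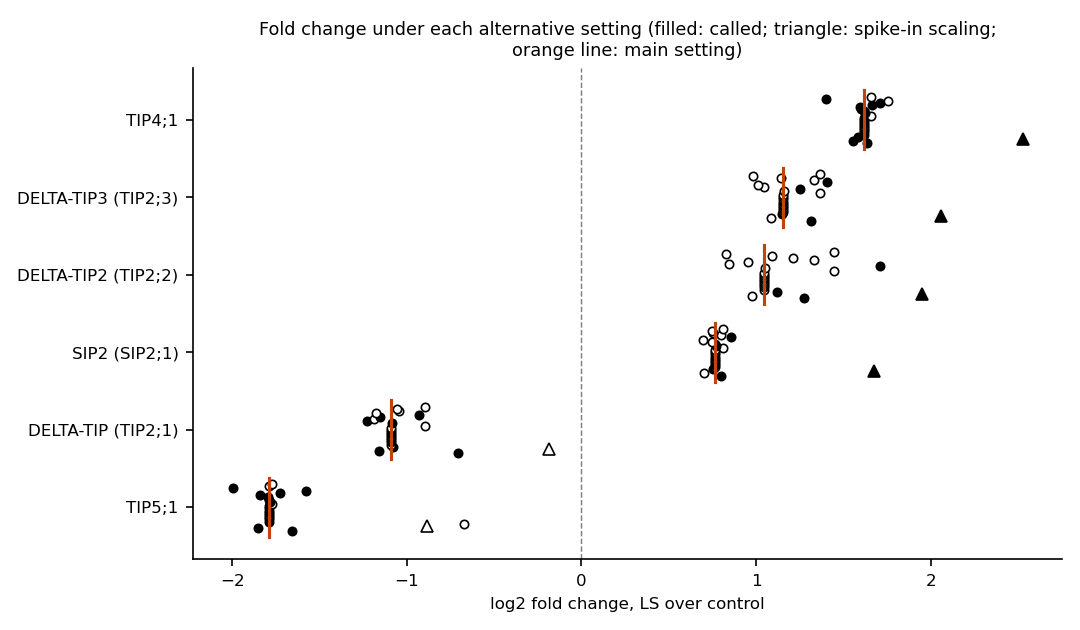
Log2 fold change of LS over control (x axis) for 6 aquaporin genes (y axis) under each of the 23 alternative settings, with filled points where the gene was called, open points where it was not, triangles for scaling on the spike-in controls and an orange line for the main value. No gene crosses 0 under any setting, but settings that change only the filter, outlier marks, test, threshold or replicate block repeat the main value. The values of DELTA-TIP lie between -1.23 and -0.19.

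The direction of these 6 genes held under all 23 alternatives, 1 of which gave no value for TIP5;1, but their calls were less firm. Alternatives that changed only the filter, outlier marks, test, threshold or replicate block repeated the main fold change. They therefore add nothing on the direction. The counts of calls below include alternatives with an unadjusted p. TIP4;1, between 1.40 and 2.53, was called in 19 of 23 alternatives and TIP5;1 in 16 of 22. DELTA-TIP was called in 13 of 23 and SIP2 in 11 of 23, DELTA-TIP3 in 7 of 23 and DELTA-TIP2 in 5 of 23. Leaving out control array 2 ended the call of TIP4;1 (log2 fold change 1.75, adjusted p = 0.073), and leaving out control array 3 ended that of TIP5;1 (-1.79, adjusted p = 0.053). The call of DELTA-TIP ended without LS array 1 (-1.19, adjusted p = 0.057) and without control array 1 (-1.18, adjusted p = 0.069), control array 2 (-1.04, adjusted p = 0.124) or control array 3 (-1.06, adjusted p = 0.097). That of SIP2 ended without any single array other than LS array 3, with log2 fold changes of 0.70 to 0.80 and adjusted p of 0.066 to 0.151. Without LS array 3, DELTA-TIP3 was called (1.40, adjusted p = 0.046).

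Within the slide that holds both groups, LS array 1 differed from the mean of the 3 control arrays by 1.66 in TIP4;1, -1.77 in TIP5;1, -0.90 in DELTA-TIP and 0.81 in SIP2, with adjusted p of 0.080 to 0.091. These p-values take the lone LS array to vary as the control arrays do. With the slide as a block the log2 fold changes were the same, since LS arrays 2 and 3 are alone on their slide and the estimate again rests on LS array 1. The adjusted p values of these 4 genes were then 0.118 to 0.203 and no aquaporin gene was called. On the scale of the spike-in controls the median of all genes was 0.88 higher in LS and that of the aquaporins 0.85 higher. Relative to all genes the family was thus again close to the median. The spike-ins were 1.27, 1.26 and 0.16 above the 75th percentile (log2) in LS arrays 1 to 3. In control arrays 1 to 3 they were 1.51, 1.61 and 2.28 above it, so array 3 of each group carried most of this shift. On that scale 7 aquaporin genes were called higher and none lower, and DELTA-TIP had a log2 fold change of -0.19 (adjusted p = 0.771). With 3 against 3 arrays, an exact two-sided permutation test of a single gene cannot give a p below 0.1.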

How the data were processed

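The authors scanned 6 single-colour arrays and ran Agilent Feature Extraction (10.7.3 in the submitters' notes, 10.7.3.1 in the file headers), and the deposited processed signal is a linear, background-subtracted intensity. A table of 38614 rows, likewise deposited, holds a ratio, each processed signal over the 75th percentile of its array. Here 1417 control spots were left out, log2 of the signal minus the array's 75th percentile was taken, spots marked as outliers were set missing and spots of one probe were averaged. Loci were matched to the TAIR10.1 table, which holds 34 of the 35 numbered member names. Coordinates are left out because the array was designed on an older annotation than this table, and sequences were not used here. Probe sequences were not examined, so signal shared between close relatives was not checked.

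The main test was limma 3.58.1 under R 4.3.3, lmFit followed by eBayes over 32348 probes, with no block. The number of arrays limits the precision. The study's own test, called the methods' t-test, was an alternative, as were other scalings, background corrections, filters, thresholds, blocks and left-out arrays. Normexp (offset 50) used the median signal, since no mean signal was in the files used. LS array 1 against the controls of its slide was added after seeing the data.

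Values on each array were given for called genes, the brightest gene of each subfamily, the 3 largest rises and falls among genes above background on all 6 arrays, and genes whose probes differ in the call. PIP1A, PIP2B, RD28, PIP3A, BETA-TIP, NIP5;1 and the list genes BOR1, BOR3, BOR4, COBL9 and SCR were added after their values were seen. Members, lists and rules were chosen with earlier results of these data known.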

Additional observations from a re-analysis of the deposited data

How the results depend on the processing

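With 3 arrays a group, calls near the threshold turned on single arrays and settings, and the causes were not tested. The number of genes called higher, 2 in the main setting, was 4 with quantile normalization, 1 with arrays centred on the median, 7 with spike-in scaling, 5 with normexp, 1 with no filter on dim probes, 4 by the methods' t-test unadjusted, 0 by it after Benjamini-Hochberg, 7 by limma unadjusted, 1 at a fold of at least 2, 0 with the slide as a block, 5 with the mean of a gene's probes and 0 within slide 1. Both slide settings rest on LS array 1 alone among the LS arrays. The number called higher was 0 to 3 with 1 array left out, with 0 without control array 2. The number called lower, also 2, was 0 with spike-in scaling, 1 with no filter, 1 for genes above background on all 6 arrays, 0 by the methods' t-test after Benjamini-Hochberg, 4 by limma unadjusted, 0 with the slide as a block and 0 within slide 1. It was 0 to 2 with 1 array left out, with 0 without control array 3 and 1 without LS array 1, control array 1 or control array 2. The median log2 fold change of the family was 0.067 with quantile normalization, -0.12 centred on the median, 0.85 with spike-in scaling, -0.10 with normexp, -0.10 with no filter, 0.0057 above background on all 6 arrays, and -0.17 to 0.0068 with 1 array left out. Spike-in scaling called 7.69% of all probes higher and 0.133% lower, against 2.6% and 2.45%.

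Same-numbered arrays did not deviate together (correlations 0.0313, -0.118 and -0.189). With 3 arrays a group this cannot settle whether the replicate number pairs them, and no label says so. A replicate block gave 1 gene called higher and 1 lower.

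Sign changes were found only in genes without a call in the main setting. With spike-in scaling PIP1C was 0.35, SIP1B 0.033, GAMMA-TIP2 0.56 and ALPHA-TIP 0.25. GAMMA-TIP2 was 0.073 with quantile normalization. Centred on the median NIP2;1 was -0.067, PIP2A -0.032 and SIP1A -0.057. With the slide as a block, and within slide 1, NIP2;1 was -0.024 and SIP1A -0.022. PIP2A was -0.21 with normexp and -0.22 with the mean of its probes. With 1 array left out NIP2;1 was -0.11 to 0.11, PIP2A -0.13 to 0.25 and SIP1A -0.020 to 0.027.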
